A study of Rattus norvegicus with 24 samples.

Results

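The genes described here encode the 3 neurofilament subunits (Nefl, Nefm and Nefh) and a pair of microtubule-associated proteins (Map2 and Mapt, the gene of tau). They were chosen by name as markers of the neuronal cytoskeleton, with earlier results of these data known. They were found by their Ensembl IDs: Nefl ENSRNOG00000013658, Nefm ENSRNOG00000013916, Nefh ENSRNOG00000008716, Map2 ENSRNOG00000011841 and Mapt ENSRNOG00000005133. All 5 were among the 32754 gene rows of the count table, and all 5 were among the 15908 genes with enough counts to be tested.

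Neurofilaments are the intermediate filaments of neurons and run along the axon, where they set its calibre. The light subunit, made from Nefl, forms the core of the filament, and the medium and heavy subunits, made from Nefm and Nefh, add long phosphorylated tails. The heavy subunit is known to appear later in the maturation of neurons than the other 2. Map2 protein binds microtubules mainly in dendrites and cell bodies, and tau binds them mainly in axons. Excess glutamate opens calcium-permeable receptors on cortical neurons, and calcium-activated calpains are known to cleave neurofilaments, Map2 and tau at the protein level. The measurements here are of RNA.

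The cells were rat cortical cells, described as neurons, grown for 8 days before treatment. They then received either fresh growth medium ("medium") or medium with glutamate at 250 µM ("glutamate") and were imaged for 4 h. Each of these was combined with DMSO, the solvent control, or with 1 of 3 agents named by the codes IS141, AH609 and AH236, which gave 8 groups of 3 libraries. The labels describe all groups alike in cortical source, plating and culture time, and name no plating or cell batch that they shared. The labels give no dose, timing or structure for the agents, and no strain or age for the rats. The AH236 glutamate group has 2 libraries numbered 2 by title, and the later one is called replicate 3. Whether replicates were separate cultures is not stated, and the p-values then reflect library-to-library spread that may be technical in part.

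Library totals ran from 22509400 to 35496447 counts. Levels are given in CPM, counts scaled to a common library size after TMM, a correction of library totals for differences in composition. The 5 genes together made up 0.549% to 0.632% of the counts of each medium library and 0.648% to 0.704% of each glutamate library. All 5 were detected in every library, and this was the only check of the neuronal label that could be made, because the other gene IDs could not be matched to names. One library, DMSO medium replicate 1, stood apart: its correlation with a replicate of its group fell to 0.982, and the lowest among all replicate pairs without it was 0.993. Comparisons of agents with DMSO in medium are given with and without it. In these bulk samples, fewer cells of a type and less RNA per cell cannot be told apart.

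Nefl, the light subunit, was higher in glutamate under every treatment. With DMSO it stood at 740.1, 622 and 588 CPM in the 3 medium libraries and at 1047, 1195 and 1072 CPM in the 3 glutamate libraries. With IS141 it went from 555, 537 and 527 CPM in medium to 986, 1002 and 939 CPM in glutamate. The AH609 libraries held 614, 626 and 556 CPM in medium and 1113, 1041 and 1045 CPM in glutamate. For AH236 the values were 577, 492 and 576 CPM in medium and 1106, 1176 and 1237 CPM in glutamate. The lowest glutamate library, at 939 CPM, therefore lay above the highest medium library, at 740.1 CPM, which was DMSO medium replicate 1. Over all 4 treatments Nefl was 1.85-fold higher (log2 fold change 0.89 ± 0.04 SE, 95% confidence interval 0.81 to 0.96, edgeR quasi-likelihood test, Benjamini-Hochberg adjusted p = 1.10e-16). That placed it at percentile 90.0 of the log2 fold changes of all genes tested.

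Nefm, the medium subunit, rose less and less evenly. In the DMSO libraries it was at 373, 542 and 511 CPM in medium and at 563, 678 and 589.9 CPM in glutamate. The IS141 libraries had 428, 399 and 389.5 CPM in medium and 527, 531 and 524 CPM in glutamate, the tightest glutamate group. With AH609 Nefm was at 527, 533 and 470.0 CPM in medium and at 626, 560.5 and 557 CPM in glutamate. With AH236 it was at 578, 474 and 555 CPM in medium and at 656, 640.0 and 678 CPM in glutamate. Within each treatment the 3 glutamate libraries lay above the 3 medium libraries after TMM. How many of all genes separate so within a treatment was not counted. The 12 glutamate and the 12 medium libraries overlapped, since IS141 in glutamate (527 ± 3.11 CPM, SD, n = 3) was below AH236 in medium (536 ± 55.0 CPM, SD, n = 3). Over all 4 treatments the log2 fold change of Nefm was 0.31 ± 0.05 SE (95% confidence interval 0.20 to 0.41, edgeR adjusted p = 2.11e-05), 1.24-fold.

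Nefh, the heavy subunit, went the other way and fell in glutamate under every treatment. It was counted far less often than the others, with 134 to 536 counts per library, so counting error weighs more on its values. With DMSO its level was 18.1, 17.4 and 13.4 CPM in medium and 8.91, 9.22 and 8.45 CPM in glutamate. The IS141 libraries held 13.3, 13.6 and 12.04 CPM in medium and 6.14, 5.74 and 6.29 CPM in glutamate. With AH609 Nefh was at 14.1, 15.1 and 12.3 CPM in medium and at 7.90, 6.46 and 6.18 CPM in glutamate. The AH236 values were 15.0, 11.2 and 13.2 CPM in medium and 7.64, 7.32 and 7.85 CPM in glutamate. All 12 glutamate libraries were below all 12 medium libraries, with the nearest pair at 9.22 CPM (DMSO glutamate replicate 2) and 11.2 CPM (AH236 medium replicate 2). The log2 fold change over all 4 treatments was -0.94 ± 0.06 SE (95% confidence interval -1.06 to -0.82, edgeR adjusted p = 8.32e-14), which is 0.520-fold. Only 6.25% of the genes tested had a log2 fold change as low or lower.

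**Figure D1:**
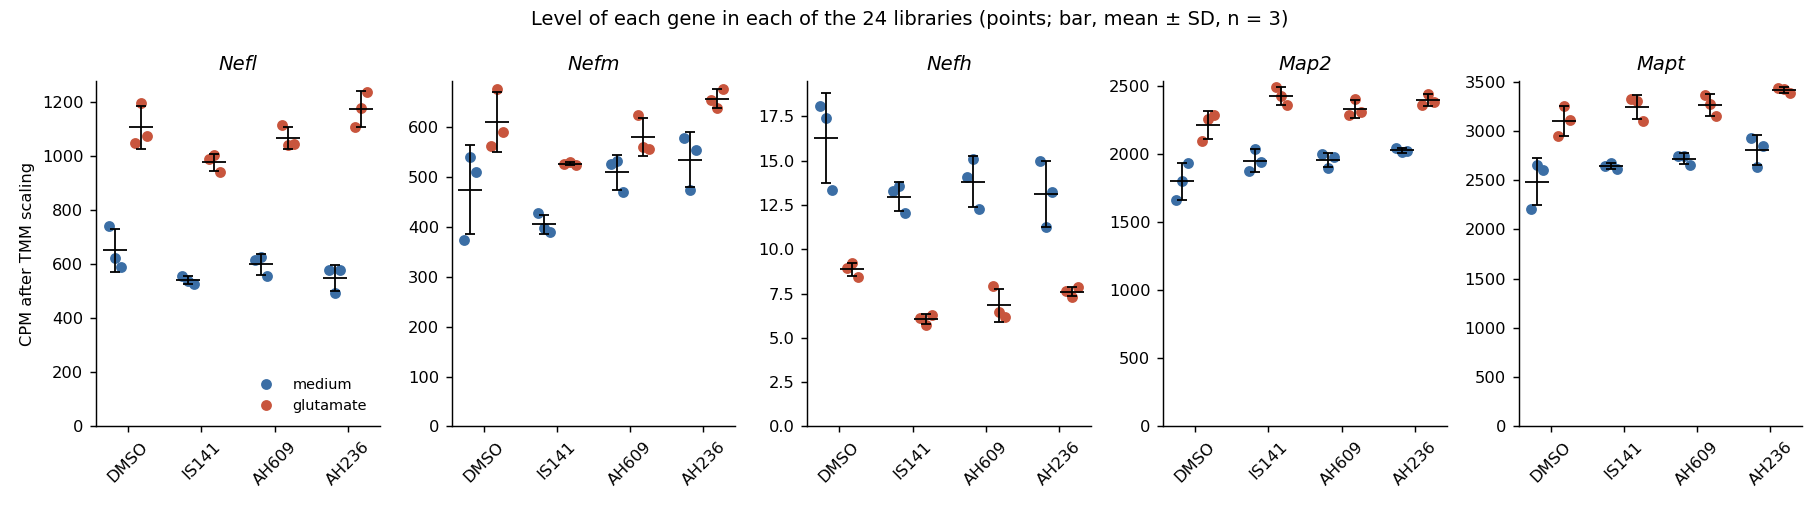
Level of each of the 5 genes (vertical axes, CPM after TMM scaling, each from 0 and each on its own scale) in the 24 libraries, by treatment and medium, with 1 point per library and bars for the mean ± SD of 3 libraries. Nefl, Map2 and Mapt are higher and Nefh lower in every glutamate library than in every medium library, and Nefm overlaps between media across treatments.

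Map2, the dendritic microtubule-associated protein, was higher in glutamate by a smaller factor than Nefl. In the DMSO libraries it was at 1665, 1807 and 1939 CPM in medium and at 2096, 2263 and 2291 CPM in glutamate. IS141 gave 1877, 2042 and 1942 CPM in medium and 2498, 2431 and 2363 CPM in glutamate. The AH609 libraries had 2003, 1901 and 1978 CPM in medium and 2286, 2409 and 2313 CPM in glutamate. With AH236 Map2 was at 2048, 2017 and 2024 CPM in medium and at 2362, 2448 and 2389 CPM in glutamate. No glutamate library fell within the range of the 12 medium libraries on this scale. The log2 fold change over all 4 treatments was 0.28 ± 0.02 SE (95% confidence interval 0.23 to 0.33, edgeR adjusted p = 4.54e-11), a 1.21-fold difference.

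Mapt, which encodes tau, moved by about the same amount. Its DMSO libraries held 2207, 2650.0 and 2602 CPM in medium and 2950.5, 3253 and 3109 CPM in glutamate. With IS141 the levels were 2641, 2671 and 2615 CPM in medium and 3324, 3304 and 3103 CPM in glutamate. With AH609 Mapt was at 2746, 2749 and 2652 CPM in medium and at 3368, 3273 and 3151 CPM in glutamate. The AH236 libraries had 2928, 2635 and 2846 CPM in medium and 3437, 3429 and 3386 CPM in glutamate. The media did not overlap over the 12 libraries each, and the lowest value of all, 2207 CPM, was that of DMSO medium replicate 1. Over all 4 treatments the log2 fold change of Mapt was 0.29 ± 0.03 SE (95% confidence interval 0.24 to 0.35, edgeR adjusted p = 1.88e-10), or 1.22-fold.

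Glutamate changed a large share of the transcriptome, and the counts for these genes have to be read against it. Over all 4 treatments 78.4% of the genes tested were called in either direction at an adjusted p under 0.05 (38.8% higher and 39.6% lower), and 5 of the 5 genes were called, 4 higher and 1 lower. The glutamate libraries lay above all medium libraries, with no overlap, for 16.7% of the genes tested, as they did for Nefl, Map2 and Mapt, and below all of them for 18.1%, as for Nefh. The median log2 fold change of the 5 genes was 0.29, and that of all genes tested was 0.00. By size of log2 fold change in either direction, Nefl and Nefh were at percentiles 82.8 and 84.6 of the genes tested. Nefm, Map2 and Mapt were at percentiles 44.3, 40.5 and 42.4. Called genes were thus common everywhere, and a call alone sets none of the 5 genes apart.

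The glutamate effect was also fitted within each treatment. With DMSO, where 59.1% of genes were called, all 5 genes were called in edgeR's test: Nefl at a log2 fold change of 0.76 (adjusted p = 4.05e-09), Nefm at 0.36 (adjusted p = 0.00561), Nefh at -0.88 (adjusted p = 2.68e-07), Map2 at 0.30 (adjusted p = 5.92e-06) and Mapt at 0.32 (adjusted p = 1.21e-05). Without DMSO medium replicate 1 these log2 fold changes were 0.87, 0.21, -0.79, 0.24 and 0.24, and Nefm had an adjusted p of 0.0258. With IS141, where 59.1% of genes were called, all 5 were called again, with Nefl at 0.85, Nefm at 0.38, Nefh at -1.10, Map2 at 0.32 and Mapt at 0.30. With AH609, where 61.3% of genes were called, Nefl (0.83), Nefh (-1.02), Map2 (0.25) and Mapt (0.27) were called, and Nefm was not (0.19, 95% confidence interval -0.03 to 0.41, edgeR adjusted p = 0.125). Nefm passed the threshold with AH609 without DMSO medium replicate 1 (edgeR adjusted p = 0.0263). That library is in neither group there but enters the scaling and the spread shared by all groups. With AH236, where 60.6% of genes were called, all 5 were called: Nefl at 1.10, Nefm at 0.30, Nefh at -0.78, Map2 at 0.24 and Mapt at 0.29. Nefm's call with AH236 (edgeR adjusted p = 0.0184) was lost without AH236 medium replicate 2 (0.21, adjusted p = 0.108) and without AH236 glutamate replicate 3 (0.27, adjusted p = 0.0575).

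**Figure D2:**
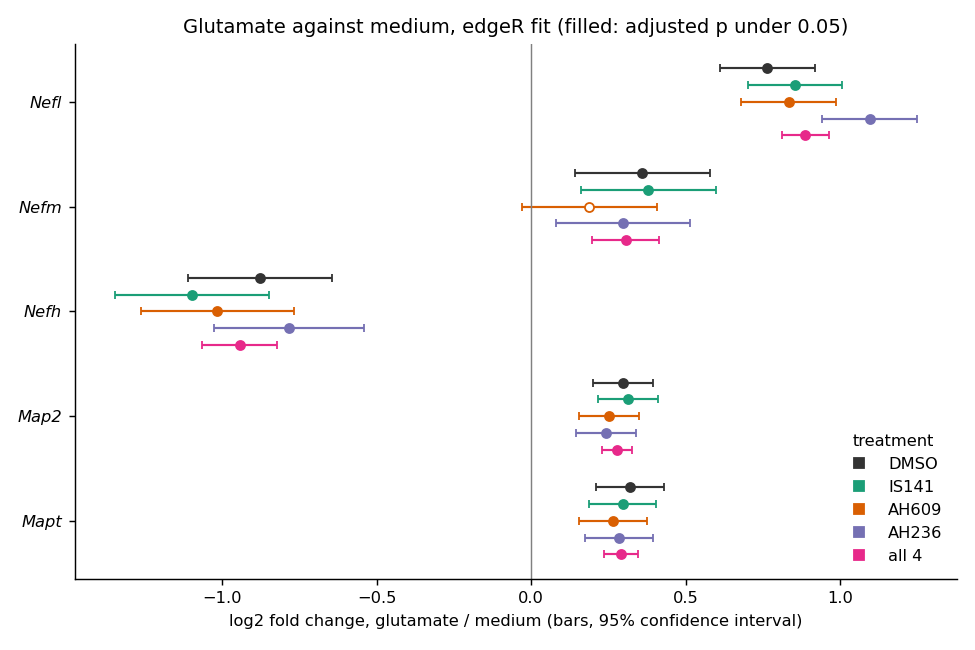
Log2 fold change of glutamate against medium (horizontal axis) for each gene within each treatment and over all 4, with bars for the 95% confidence interval of edgeR's test and filled points for an adjusted p under 0.05. Nefl lies between 0.76 and 1.10 and Nefh between -1.10 and -0.78, while Nefm, Map2 and Mapt lie between 0.19 and 0.38.

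The small rises depended on how libraries were scaled. When library totals alone were used in place of TMM, over all 4 treatments the median gene's log2 fold change moved from 0.00 to -0.19, and every member moved with it. On that scale Nefl was at 0.70, Nefm at 0.12, Nefh at -1.13, Map2 at 0.09 and Mapt at 0.10, so no direction changed. Relative to the median gene the members stayed near the values above. The 5 were still called over all 4 treatments, with edgeR adjusted p of 0.0286 for Nefm, 0.000433 for Map2 and 0.00016 for Mapt. Within treatments, library totals ended the call of Nefm with DMSO, IS141 and AH236 (0.10 to 0.18), of Mapt with each agent (0.09 to 0.10) and of Map2 with AH609 and AH236 (0.04 to 0.08). The calls of Nefl and Nefh held in every treatment on both scales, and their glutamate and medium libraries did not overlap on either. Map2 and Mapt overlapped between the 12 glutamate and the 12 medium libraries when library totals alone were used. On that scale Nefm also overlapped between media within DMSO, AH609 and AH236, and Map2 within DMSO and AH236.

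Ratios of 2 genes within a library do not depend on this scaling. Raw counts were used, so a ratio also carries the lengths of both transcripts, and only its change between libraries is compared. Nefh counts per 100 Nefl counts were 2.21 to 2.80 in the 12 medium libraries and 0.573 to 0.852 in the 12 glutamate libraries, with no overlap. The heavy-to-light ratio was 0.282-fold as high in glutamate (log2 difference -1.83, two-sided exact permutation test within treatments, p = 1.25e-05, the smallest it can give, adjusted over the 4 ratios 2.5e-05). By treatment its log2 difference was -1.64 with DMSO, -1.95 with IS141, -1.85 with AH609 and -1.88 with AH236. Nefh against Nefm also fell without overlap, to 0.420-fold (log2 difference -1.25, exact permutation p = 1.25e-05, adjusted 2.5e-05). Its log2 difference was -1.24 with DMSO, -1.48 with IS141, -1.21 with AH609 and -1.08 with AH236. Within every treatment Nefl and Nefm lay higher and Nefh lower in glutamate without overlap after TMM. Both ratios therefore had to separate within each treatment, and their p-values follow from those values and are no separate support. How many pairs among all genes tested separate so was not counted.

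The medium-to-light ratio fell as well, to 0.670-fold over all 4 treatments (log2 difference -0.58, exact permutation p = 5e-05, adjusted 6.67e-05). Nefm counts per Nefl count lay between 0.530 and 0.593 in all 12 glutamate libraries. In medium they were 0.505, 0.871 and 0.869 with DMSO, 0.770, 0.742 and 0.739 with IS141, 0.858, 0.852 and 0.846 with AH609 and 1.001, 0.962 and 0.963 with AH236. DMSO medium replicate 1 thus had the lowest ratio of all 24 libraries, and the media overlap through this 1 library. Without it the log2 difference was -0.64. The 3 agents' medium libraries did not overlap with one another in this ratio, and in glutamate they did. That difference between agents was noticed after the values were seen, and is given as a description with no test.

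Map2 against Mapt did not change detectably. Map2 counts per Mapt count were 0.682 to 0.765 in the medium libraries and 0.679 to 0.762 in the glutamate libraries. The log2 difference was -0.02 over all 4 treatments (exact permutation p = 0.477, adjusted p = 0.477) and between -0.05 and 0.02 within treatments. The 2 ranges almost coincide.

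**Figure D3:**
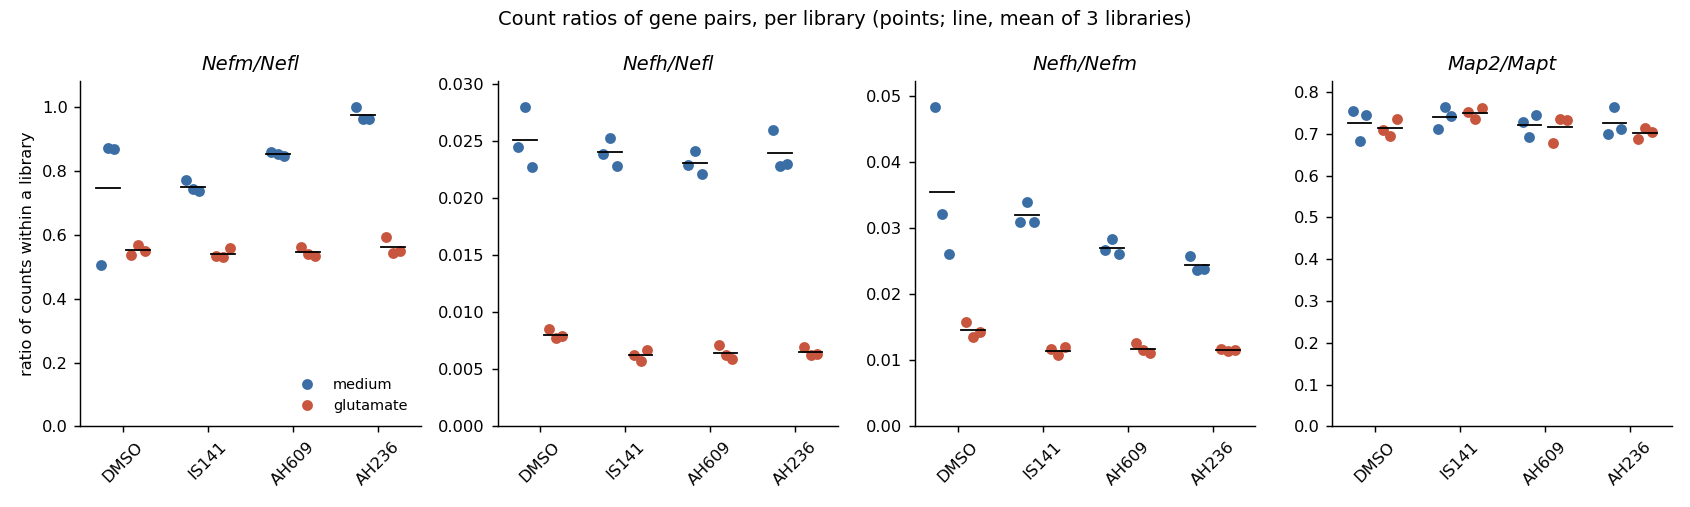
Count ratios of 4 pairs of genes within each library (vertical axes, each from 0 and on its own scale), by treatment and medium, with 1 point per library and a line for the mean of 3 libraries. Nefh/Nefl and Nefh/Nefm are lower in every glutamate library than in every medium library, Nefm/Nefl overlaps only through DMSO medium replicate 1 at 0.505, and Map2/Mapt overlaps.

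Each agent was set against DMSO in medium, where the agents share the same 3 DMSO libraries. With IS141, where 7.98% of genes were called and 3.5% were lower, only Nefl was called among the 5 (log2 fold change -0.27 ± 0.07 SE, edgeR adjusted p = 0.0257). Its mean was 540 ± 14.1 CPM (SD, n = 3) in the IS141 libraries and 650.1 ± 79.7 CPM (SD, n = 3) in the DMSO libraries. The call was lost without DMSO medium replicate 1 (-0.16, adjusted p = 0.115), without IS141 medium replicate 2 (adjusted p = 0.0997) and without IS141 medium replicate 3 (adjusted p = 0.0971). Nefm was at -0.23 (adjusted p = 0.200), and at -0.38 (adjusted p = 0.00196) without DMSO medium replicate 1. Nefh was at -0.33 (adjusted p = 0.0684), Map2 at 0.12 (adjusted p = 0.141) and Mapt at 0.09 (adjusted p = 0.351). These 3, without DMSO medium replicate 1, were at -0.24 (edgeR adjusted p = 0.186), 0.06 (adjusted p = 0.416) and 0.01 (adjusted p = 0.926). Without DMSO medium replicate 3, edgeR also called Nefh (-0.45, adjusted p = 0.00844) and Map2 (0.17, adjusted p = 0.0249).

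With AH236 in medium, where 10.5% of genes were called (5.55% higher and 4.95% lower), 3 of the 5 genes were called in edgeR's test. Nefl was lower, at -0.24 ± 0.07 SE (adjusted p = 0.0343), and Map2, at 0.17 ± 0.05 SE (adjusted p = 0.0204), and Mapt, at 0.17 ± 0.05 SE (adjusted p = 0.0380), were higher. None of these calls held without DMSO medium replicate 1, where Nefl was at -0.14 (adjusted p = 0.211), Map2 at 0.12 (adjusted p = 0.0998) and Mapt at 0.09 (adjusted p = 0.211). Nefl was also lost without AH236 medium replicate 2 (-0.17, adjusted p = 0.170), and Map2 and Mapt without AH236 medium replicate 1 (adjusted p = 0.0750 and 0.179) or replicate 3 (adjusted p = 0.0562 and 0.120). Nefm (0.17, adjusted p = 0.333) and Nefh (-0.31, adjusted p = 0.0670) were not called. Leaving out DMSO medium replicate 1 put Nefm at 0.02 (edgeR adjusted p = 0.901) and Nefh at -0.23 (adjusted p = 0.239). Nefh passed without DMSO medium replicate 3 (-0.44, edgeR adjusted p = 0.00697) or AH236 medium replicate 1 (-0.41, adjusted p = 0.0377), and with library totals alone (-0.37, adjusted p = 0.0241). Library totals also ended the calls of Map2 (0.11, edgeR adjusted p = 0.0853) and Mapt (0.11, adjusted p = 0.102). With AH609 in medium, where 3.06% of genes were called, 0 of the 5 were called by edgeR or by DESeq2. An unadjusted edgeR p under 0.05 was found for 3 of the 5 and for 2569 of the 15908 genes tested. The log2 fold changes were -0.12 for Nefl, 0.10 for Nefm, -0.23 for Nefh, 0.12 for Map2 and 0.13 for Mapt. They were, without DMSO medium replicate 1, -0.02, -0.04, -0.15, 0.07 and 0.05 in the same order, so the sign of Nefm turned, and none was called. Map2 was called by edgeR without DMSO medium replicate 3 (0.18, adjusted p = 0.0408).

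In glutamate the clearest difference between an agent and DMSO was in Nefh with IS141. The IS141 glutamate libraries (6.05 ± 0.284 CPM, SD, n = 3) lay below the DMSO glutamate libraries (8.86 ± 0.389 CPM, SD, n = 3), with no overlap. How many of all genes separate so between these groups was not counted. The log2 fold change was -0.55 ± 0.12 SE (95% confidence interval -0.80 to -0.29, 0.684-fold, edgeR adjusted p = 0.00726). It was the only call among the 5 genes in that comparison, where 8.46% of all genes were called and 4.39% were lower. Nefl was at -0.18 (adjusted p = 0.136), Nefm at -0.21 (adjusted p = 0.228), Map2 at 0.13 (adjusted p = 0.0790) and Mapt at 0.06 (adjusted p = 0.515). Without DMSO medium replicate 1, edgeR also called Nefl (adjusted p = 0.0375), Nefm (adjusted p = 0.0449) and Map2 (adjusted p = 0.0212) at almost the same log2 fold changes. That library is in neither group but enters the shared scaling and spread. In medium, Nefh was also lower with IS141 than with DMSO, but not called (log2 fold change -0.33, edgeR adjusted p = 0.0684).

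With AH609 in glutamate, where 2.62% of genes were called, 0 of the 5 genes were called by edgeR or DESeq2. Of the 5, only Nefh had an unadjusted edgeR p under 0.05, against 2461 of the 15908 genes tested. Nefh was at -0.37 (95% confidence interval -0.63 to -0.12, edgeR adjusted p = 0.1097), and the other 4 lay between -0.07 and 0.08. With AH236 in glutamate, where 10.3% of genes were called, 0 of the 5 were called by edgeR or DESeq2. An unadjusted edgeR p under 0.05 was found for 2 of the 5 and for 3743 of the 15908 genes tested. Nefl was at 0.09, Nefm at 0.11, Nefh at -0.22, Map2 at 0.11 (edgeR adjusted p = 0.130) and Mapt at 0.14 (edgeR adjusted p = 0.103). Map2 (adjusted p = 0.0405) and Mapt (adjusted p = 0.0138) were called by edgeR without DMSO medium replicate 1, at the same log2 fold changes. The agents were not set against one another, since their doses are not given.

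**Figure D4:**
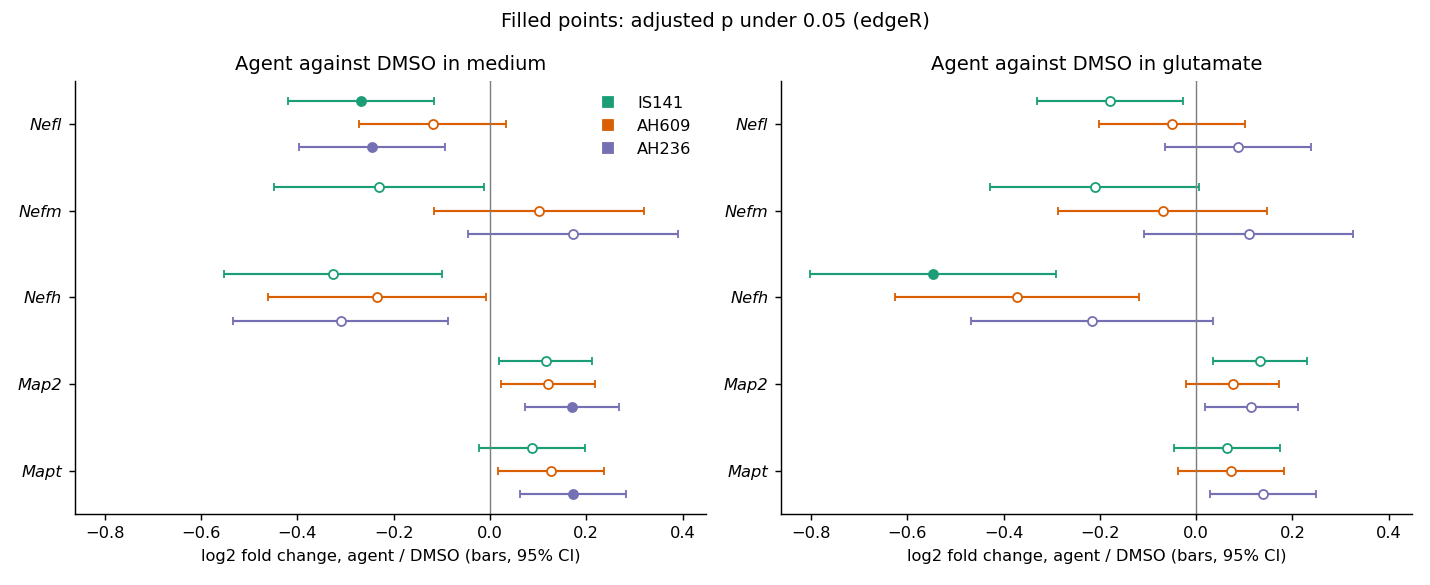
Log2 fold change of each agent against DMSO (horizontal axes) in medium and in glutamate for each gene, with bars for the 95% confidence interval of edgeR's test and filled points for an adjusted p under 0.05. Filled points are Nefl with IS141 and AH236, and Map2 and Mapt with AH236, in medium, and Nefh with IS141, at -0.55, in glutamate.

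The glutamate effect under each agent was then compared with that under DMSO as an interaction. None of the 5 genes was called by edgeR or DESeq2 for any agent. For IS141, AH609 and AH236, 0.779%, 0.0251% and 1.55% of all genes were called. Of the 15908 genes tested, 1580, 1151 and 2287 had an unadjusted edgeR p under 0.05. Among the 5 genes the number was 0, 0 and 1. That 1 was Nefl with AH236, whose rise was larger than with DMSO by 0.33 (95% confidence interval 0.12 to 0.55, edgeR adjusted p = 0.108). Without DMSO medium replicate 3 the difference was 0.40 (adjusted p = 0.0400), and without replicate 1 it was 0.23 (adjusted p = 0.180). For Nefh the intervals of the difference ran from -0.56 to 0.12 with IS141, from -0.48 to 0.20 with AH609 and from -0.24 to 0.43 with AH236. For Nefm they ran from -0.29 to 0.33, from -0.48 to 0.14 and from -0.37 to 0.24 in the same order. The narrowest intervals were those of Map2 (-0.12 to 0.15, -0.18 to 0.09 and -0.19 to 0.08) and Mapt (-0.18 to 0.13, -0.21 to 0.10 and -0.19 to 0.12). Without DMSO medium replicate 1 the differences of Nefm were 0.16, -0.03 and 0.08, in place of 0.02, -0.17 and -0.06. Those of Nefh were -0.31, -0.23 and 0.01, in place of -0.22, -0.14 and 0.09. Nefl was then at -0.02 with IS141 and -0.04 with AH609, in place of 0.09 and 0.07. Mapt was at 0.05, 0.02 and 0.04, in place of -0.02, -0.05 and -0.03. Map2 was at 0.07, 0.01 and -0.0009, and none of these was called.

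Ordered by group mean, every medium group of Nefl was below every glutamate group, from IS141 in medium (540 ± 14.1 CPM, SD, n = 3) to AH236 in glutamate (1173 ± 65.6 CPM, SD, n = 3). Among neighbours in that order, only DMSO in medium and IS141 in glutamate, and IS141 and AH609 in glutamate, did not overlap. Nefm ran from IS141 in medium (405 ± 19.8 CPM, SD, n = 3) to AH236 in glutamate (658 ± 19.1 CPM, SD, n = 3), and all neighbouring groups overlapped. Nefh ran from IS141 in glutamate (6.05 ± 0.284 CPM, SD, n = 3) to DMSO in medium (16.3 ± 2.56 CPM, SD, n = 3), with gaps on both sides of DMSO in glutamate. Map2 had DMSO in medium lowest (1804 ± 137 CPM, SD, n = 3) and IS141 in glutamate highest (2431 ± 67.5 CPM, SD, n = 3), with gaps on both sides of AH236 in medium. Mapt had DMSO in medium lowest (2486 ± 243 CPM, SD, n = 3) and AH236 in glutamate highest (3417 ± 27.5 CPM, SD, n = 3), with gaps below DMSO in glutamate and below AH236 in glutamate. How common such gaps are among all genes tested was not counted, so they are a description.

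The genes with the most similar profile over the 24 libraries were found by Pearson's r of log2 CPM among 12288 genes. They are known only by ID. The closest to Nefl was ENSRNOG00000034093 (r = 0.989), which had a log2 fold change of 0.71 with glutamate over all 4 treatments. The closest to Mapt was ENSRNOG00000018992 (r = 0.994), at 0.35. Nefh was closest to ENSRNOG00000009536 (r = 0.978), at -0.86, and next to ENSRNOG00000003603 (r = 0.976), at -0.55. The closest to Nefm was ENSRNOG00000008738 (r = 0.960), at 0.24. Map2 was closest to ENSRNOG00000000593 (r = 0.981), at 0.36. Its neighbours at ranks 2 and 3 were ENSRNOG00000002841 (r = 0.978), at 0.38, and ENSRNOG00000004585 (r = 0.977), at 1.21. All libraries share the medium contrast, so these r values are a description.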

How the data were processed

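RNA was measured by sequencing in 24 libraries, grouped by titles into 4 treatments and 2 media. Per the labels' protocols, RNA came from the RNeasy Mini Kit and libraries from a directional NEBNext Ultra II kit. The deposited values are unnormalized counts, whole numbers for each gene and library. The submitters' processing notes name STAR 2.7.8a, RSEM 1.3.3, cutadapt 2.3, FastQC 0.11.8, bcl2fastq and build Rnor_6.0. The strand setting was not given in the sources used here. Because RSEM yields estimates, the deposited counts may have been rounded.

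Counts were fitted with edgeR 4.0.16 (R 4.3.3): filterByExpr, TMM scaling, robust dispersions and quasi-likelihood F tests with 1 mean for each of the 8 groups over all 24 libraries. Each of 14 comparisons had Benjamini-Hochberg adjustment over the 15908 genes tested, and a call means an adjusted p under 0.05. The common biological coefficient of variation was 7.49%. SEs were derived from the test's F statistic and log2 fold change. Exact permutation of media within treatments used all 160000 assignments for the 4 count ratios. Alternatives were DESeq2 1.42.0, other scalings, no filter, a replicate block, fewer groups and leaving out libraries.

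The members and lists were chosen with earlier results of these data known. The rule for named genes takes the 5 members and the 3 genes closest to each in profile, averaging 1 log2 CPM or more. Of the latter, the closest to each member is named, with rank 2 for Nefh and ranks 2 and 3 for Map2, and the others are left out. The further gene lists and cell type markers gave no result, because 0 IDs matched a symbol in the reference table. No transcript lengths of this build were used, so levels are not compared between genes. Title numbers were not taken as pairing the libraries, as the closing section describes.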

Additional observations from a re-analysis of the deposited data

How the results depend on the processing

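No called value of a member changed sign under the alternatives run, and 996 of the member values kept their side of the threshold, while 18 passed it and 31 fell short of it. With library totals alone, the members called in the glutamate comparison were 3 of 5 with IS141, 2 with AH609 and 2 with AH236, where 9886, 10030 and 10026 of the 15908 genes were called. For IS141 against DMSO in medium, 0 members were called with no filter on low counts, 0 with only the compared groups fitted, 2 with the replicate block and 0 to 3 when 1 library was left out. For AH236 against DMSO in medium the count was 0 with only the compared groups fitted and 0 to 4 with 1 library left out, and Nefl lost its call with no filter (edgeR adjusted p = 0.0744). For AH609 in medium it was 0 to 1 with 1 library left out. In glutamate it was 1 to 4 for IS141, with 2 when only the compared groups were fitted, and 0 to 2 for AH236. For the difference of the glutamate effect with AH236 it was 0 to 1. With only the compared groups fitted, Nefm's adjusted p in edgeR was 0.0609 with DMSO and 0.00667 with AH609, and with no filter it was 0.0593 with AH236. The fall of Nefh with IS141 in glutamate and all 4 ratio results kept their call under every alternative run for them.

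Counts of all genes called moved by more than 1.5 times in the comparisons with agents. With 1 library left out they were 563 to 1933 for IS141, 223 to 1003 for AH609 and 934 to 2229 for AH236 in medium, in place of 1269, 487 and 1671, and 62, 3 and 87 with only the compared groups fitted. In glutamate they were 605 to 2423, 163 to 995 and 801 to 2530, in place of 1346, 417 and 1633. For the difference of the glutamate effect they were 68 to 742, 0 to 214 and 77 to 496, in place of 124, 4 and 246. DESeq2 gave 211, 28 and 443 there, the compared groups alone 30, 0 and 18, and no filter 14 for AH609. Leaving out DMSO medium replicate 1 gave the upper ends 1933 for IS141 and 1003 for AH609 in medium. It also gave 2423, 995 and 2530 for IS141, AH609 and AH236 in glutamate. For the difference of the glutamate effect it gave 742, 214 and 496 in the same order. The count without it for AH236 in medium is not given here.

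The title numbers were checked as pairs: deviations of same-numbered libraries correlated at -0.08 to 0.36, with 5 of 10 pairs over 0.1, and 6 of 9 medium libraries correlated best with their own number. The pairs were not all over 0.1 and the labels name no shared source, so the numbers were not taken as pairs, and whether some libraries share a source is not settled. With the replicate block, 12443 genes were called over all 4 treatments in place of 12466, Nefh was called with IS141 (-0.32, edgeR adjusted p = 0.0436) and AH236 (-0.31, edgeR adjusted p = 0.0468) in medium, and no other member call changed. Relative counting error is greatest for Nefh, which has the fewest counts, and no dose, culture or cell composition data were at hand to set beside these values.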
